A study of Mus musculus with 32 samples.

Results

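The genes described here encode the nuclear subunits of oxidative phosphorylation in mouse liver. They were taken by name from the annotation of the array: symbols that begin with Nduf followed by a, b, c, s or v and a digit, the symbols Sdha to Sdhd, and symbols that begin with Uqc, with Cox and a digit of 4 to 8, or with Atp5. Of several probe sets with the same symbol, the one with the highest mean was used. Probe sets with several symbols were left out, so that subunits such as Cox6c, Ndufs6 and Uqcr10 are missing. The choice gave 83 of the 22180 genes measured: 31 of complex I, 4 of complex II, 7 of complex III, 18 of complex IV, 17 of complex V, and 6 that are no subunits. Those 6 are the assembly factors Uqcc1, Uqcc2 and Uqcc3, the supercomplex factor Cox7a2l and the pseudogenes Atp5c1-ps and Uqcrh-ps1.

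Liver RNA came from 32 male wild-type C57BL/6NTac mice aged 14 weeks, 1 Affymetrix Mouse Gene ST array for each. The mice were fasted for 10 h and then gavaged once, either with palm oil (2 g/kg), whose fatty acids are largely saturated, or with water in the control groups, and were studied from 6 h later. The 9 palm oil and 7 control mice of the clamped groups had carried a jugular vein catheter, received a glucose tracer for 110 min and then insulin at 15 pmol/kg/min with glucose to hold blood glucose steady, and were killed under ketamine and xylazine. The 9 palm oil and 7 control mice of the basal groups were killed under isoflurane at 6 h. Clamp, surgery, anaesthetic, infusion, time of sampling and animal number (15 to 32 in clamped, 33 to 52 in basal mice) therefore cannot be told apart. Values are log2 expression values, so that a difference of 1 is a 2-fold difference in signal.

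Oxidative phosphorylation takes electrons from NADH (complex I) and succinate (complex II) through ubiquinone to complex III, through cytochrome c to complex IV, and on to oxygen. Complexes I, III and IV pump protons across the inner mitochondrial membrane, and complex V, the ATP synthase, uses their return to make ATP. All but complex II combine these nuclear-encoded subunits with a few encoded in mitochondrial DNA, and the liver uses the chain to burn fatty acids in fasting and to pay for gluconeogenesis.

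The nuclear subunits differed little between the 4 groups. Of the 83 genes, 67 had a mean above 4 log2 units over all arrays, against 29.8% of all genes, and 12 lay below 2.5. The mean of these 67 genes on each array had a lowest, median and highest value of 8.21, 8.37 and 8.45 in palm oil clamped mice and 8.15, 8.32 and 8.43 in control clamped mice. In palm oil basal mice it was 8.24, 8.28 and 8.44, and in control basal mice 8.22, 8.28 and 8.33. The ranges of all 4 groups overlapped. The SD within a group had a median of 0.156 over the 67 genes and ran from 0.0620 for Cox6a1 to 0.910 for Cox7b. Over the 6533 other genes above 4 log2 units its median was 0.252. Those genes averaged 5.85 to 6.05 on each array and were not matched to the 67 in level, here or in later comparisons. In whole liver RNA, fewer cells of a type and less RNA per cell cannot be told apart.

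**Figure D1:**
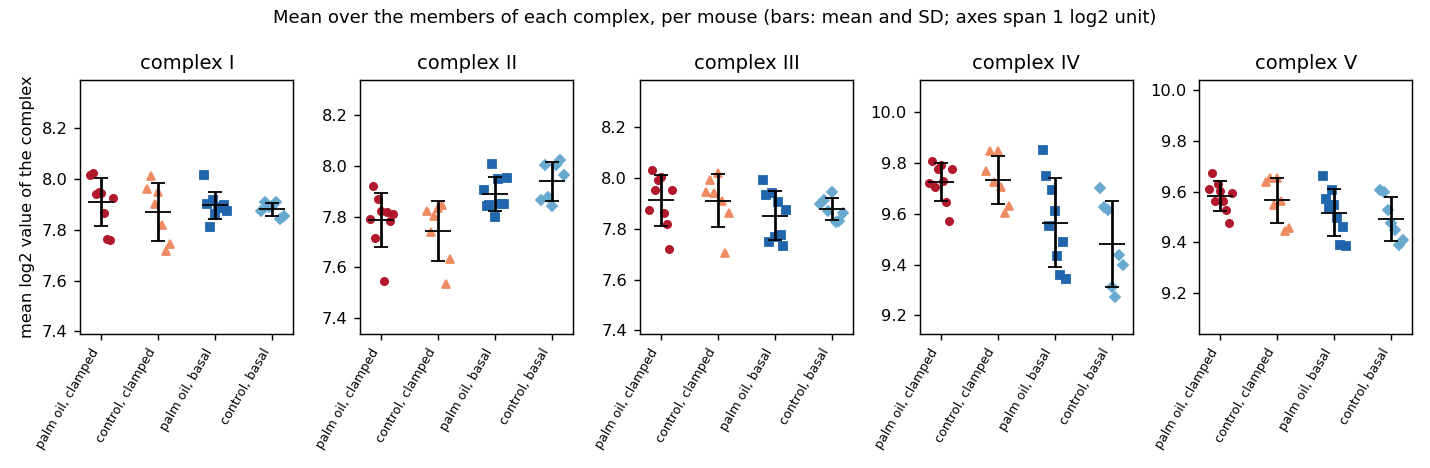
Mean log2 value of the members above 4 log2 units of complexes I (30 genes), II (4), III (7), IV (9) and V (13), with 1 point per mouse, bars for the mean and SD, and axes that each span 1 log2 unit. Groups overlap in every panel, and complex IV has its widest spread in the basal groups, with SDs of 0.176 in palm oil basal and 0.168 in control basal mice.

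In control mice, 2 of the 83 genes rose in the clamped liver and 0 fell. Both were subunits of complex IV, cytochrome c oxidase: Cox7b and Cox5b. Of all genes 8.75% were called in this comparison (4.66% higher and 4.09% lower), so that the 2 genes, 2.41% of the members, are below the share of the whole array. Of the genes above 4 log2 units 20.7% were called, against 2.99% of the members above it. In palm oil mice 0 of the 83 were called in limma, where 7.57% of all genes were (3.76% higher and 3.8% lower), and 11 members had an unadjusted p under 0.05. The members had a median log2 difference of -0.02 in control mice and of 0.01 in palm oil mice, with -0.02 over all genes in both. The 95% interval of the clamp difference lay within 1.5-fold in either direction for 61 of the 67 brighter members in control mice. In palm oil mice it did for 64. The shares of all genes above 4 log2 units, not matched in level, were 62.7% and 74.1%.

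**Figure D2:**
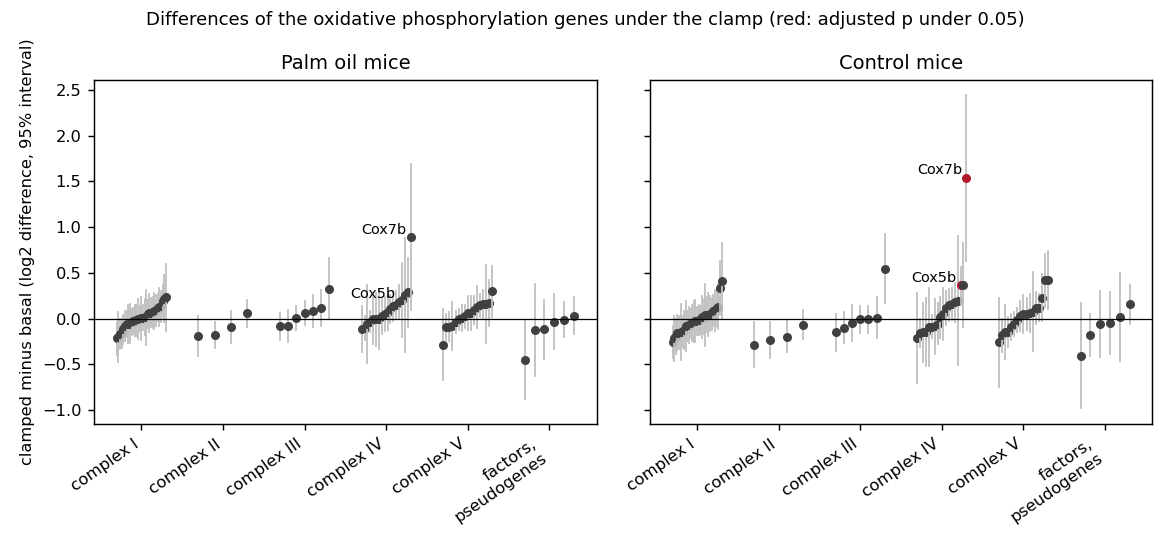
Clamped minus basal log2 difference of each of the 83 genes with its 95% interval, by complex and in order of size, in palm oil mice (left) and control mice (right). Most genes lie near 0, and the 2 red points, Cox7b and Cox5b in control mice, are the genes with an adjusted p under 0.05.

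Cox7b, a small accessory subunit of cytochrome c oxidase, had the largest difference of all members. Its lowest, median and highest values were 8.16, 8.67 and 8.93 in control clamped mice, against 5.55, 6.13 and 8.86 in control basal mice. In palm oil clamped mice they were 8.45, 8.52 and 8.84, against 5.79, 8.42 and 8.85 in palm oil basal mice. The clamped arrays lay close together, while the basal arrays fell into high and low values that overlapped with them at the top. The difference was 1.54 ± 0.45 (SE, 2.90-fold, n = 7 and 7, limma adjusted p = 0.0235) in control mice. In palm oil mice it was 0.89 ± 0.39 (n = 9 and 9, limma adjusted p = 0.201). A dimmer probe set of Cox7b, with a mean of 3.38, differed by -0.23 in control mice and by -0.07 in palm oil mice, so that the probe sets of this gene disagree.

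Cox5b, the other called gene, is a zinc-binding subunit on the matrix side of the same enzyme. Its lowest, median and highest values were 8.55, 8.75 and 8.87 in control clamped mice, against 7.99, 8.47 and 8.62 in control basal mice. They were 8.5, 8.66 and 8.83 in palm oil clamped mice, against 8.23, 8.52 and 8.66 in palm oil basal mice. In both gavage groups 5 clamped arrays lay above every basal array. The difference was 0.36 ± 0.10 (SE, 1.29-fold, n = 7 and 7, limma adjusted p = 0.0157) in control mice and 0.18 ± 0.09 (n = 9 and 9, limma adjusted p = 0.253) in palm oil mice. Here the dimmer probe set ran the same way, by 0.30 and 0.15.

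Both calls were lost when some of the basal mice were left out. Animals numbered 44 or higher gave 7 basal arrays, 3 palm oil and 4 control. These had a narrower spread of values over all probe sets (interquartile range 2.44 to 2.54) than the other 9 basal arrays (2.72 to 2.96) and the 16 clamped arrays (2.64 to 2.85). Cox7b lay between 5.55 and 7.07 on those 7 arrays, against 6.85 to 8.86 on the other 9 basal arrays and 8.16 to 8.93 on the clamped arrays. On the 9 other basal arrays Cox7b was at 8.28 or above on all but palm oil basal replicate 6, animal 43, the source of the 6.85. Cox5b was not called between the 7 and the other basal arrays, at -0.24 ± 0.09 (SE, limma adjusted p = 0.0613). Without the 7 arrays the clamp difference of Cox7b in control mice was 0.04 (limma adjusted p = 0.971) and that of Cox5b 0.19 (limma adjusted p = 0.334). That left 3 control and 6 palm oil basal arrays, so these values are less precise. Then 0 of the 83 members were called in either gavage group, against 4.63% of all genes in control mice and 5.82% in palm oil mice. With the 7 as the only basal arrays, 8 members rose and 3 fell in control mice (10.8% of all genes called). In palm oil mice 7 rose and 2 fell (9.83%). The 7 arrays were picked in these same data with Cox7b already known, so the calls with and without them are descriptions.

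**Figure D3:**
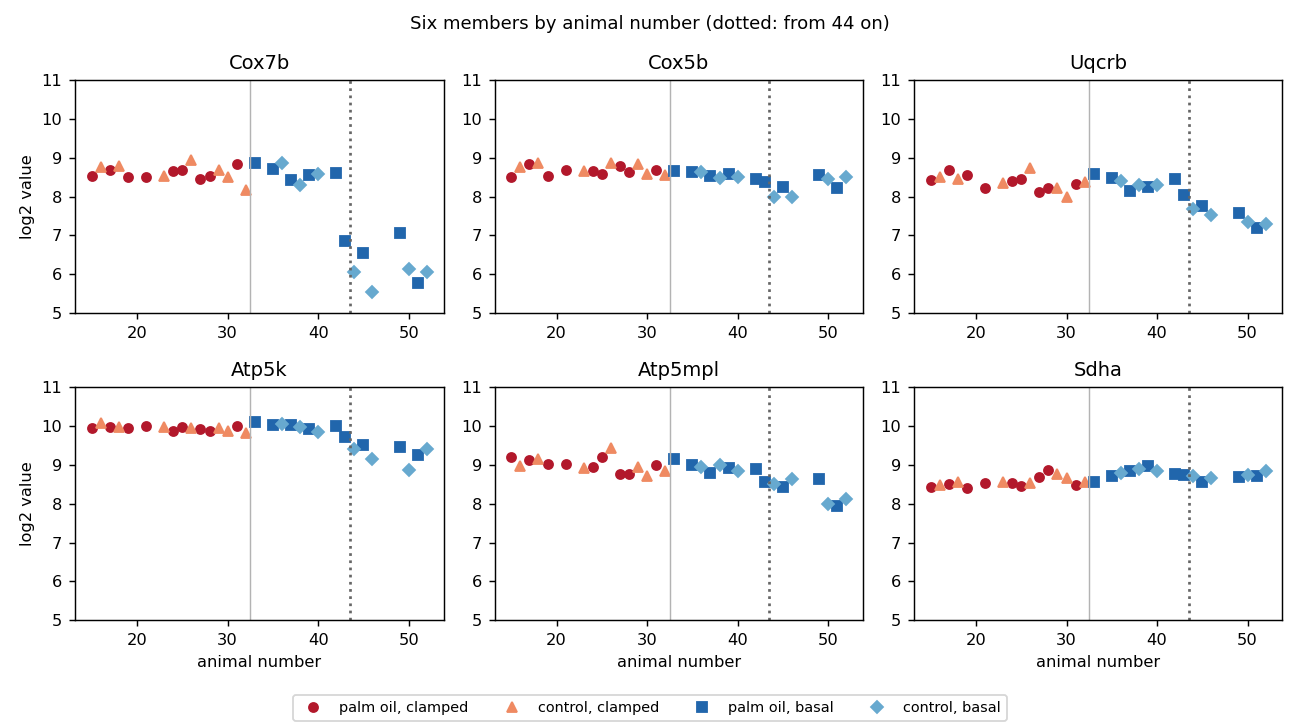
Log2 values of Cox7b, Cox5b, Uqcrb, Atp5k, Atp5mpl and Sdha in each mouse against its animal number. The solid line divides clamped from basal mice and the dotted line marks animal 44. Cox7b, Uqcrb, Atp5k and Atp5mpl have their lowest values right of the dotted line in both gavage groups, and Sdha was not called between the basal arrays on either side of it.

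Set directly against the other basal arrays, with palm oil and control kept apart in the fit, the 7 arrays differed in 26 of the 83 members, 14 lower and 12 higher, where 13.4% of all genes were called (7.57% lower and 5.84% higher). Among the genes above 4 log2 units, 24 of 67 members (35.8%) were called, against 21.7% of all such genes, which were not matched in level. The arrays were set apart by their spread of values in these same data, with results for Cox7b already known. The calls and adjusted p values of this split are therefore descriptions, for Cox7b (-2.21 ± 0.21, SE) and for all other genes. Complex IV had 2 lower members and 1 higher one, complex III 1 and 1, complex V 5 and 2, complex I 6 and 7, and complex II none, and of the other genes Uqcc2 was higher. Of the higher ones, Atp5o (2.24 against 1.78) and Ndufs5 (1.85 against 1.42) lay near the floor of the array. The median of all probe sets was also higher on the 7 arrays, at 1.73 to 1.77 against 1.66 to 1.71 on the other basal arrays. Genes above 4 log2 units that are not members went the other way. Their mean was 5.85 to 5.92 on the 7 arrays, against 5.96 to 6.05 on the other basal arrays. The genes named next for this difference were chosen after their values were seen.

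The lower genes, after Cox7b, were led by Uqcrb. This ubiquinone-binding subunit of complex III averaged 7.48 on the 7 arrays, against 8.32 on the other basal arrays (n = 7 and 9), and every one of the 7 lay below every other basal and every clamped array. Atp5k, subunit e of the ATP synthase, averaged 9.29 against 9.95 and separated the arrays in the same way. Atp5mpl, a proteolipid of the ATP synthase, averaged 8.32 against 8.89, and Atp5l, its subunit g, 10.2 against 10.7. The fitted differences were -0.84 ± 0.11 for Uqcrb, -0.64 ± 0.08 for Atp5k, -0.58 ± 0.12 for Atp5mpl and -0.51 ± 0.09 for Atp5l (limma adjusted p = 3.48e-06, 1.69e-06, 0.00125 and 1.95e-04). Ndufb3, an accessory subunit of complex I, differed by -0.68 ± 0.17 (limma adjusted p = 0.00643). The catalytic beta subunit Atp5b differed by -0.21 ± 0.07 (limma adjusted p = 0.0363).

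The higher genes were led by Uqcc2, an assembly factor of complex III, at 7.35 on the 7 arrays against 6.87 on the other basal arrays (0.52 ± 0.14, limma adjusted p = 0.0117). Ndufs7 and Ndufs8, iron-sulfur core subunits of complex I, differed by 0.38 ± 0.10 and 0.23 ± 0.07 (limma adjusted p = 0.00772 and 0.0296). The accessory subunit Ndufb7 differed by 0.31 ± 0.07 (limma adjusted p = 0.00452), and its 7 arrays all lay above the other basal arrays. Cox8a, the ubiquitous isoform of a small complex IV subunit, differed by 0.33 ± 0.09 (limma adjusted p = 0.0173). Of the 26 genes, 25 had a mean on the other 9 basal arrays within 0.2 log2 units of the clamped mean. Most members that were not called were as close, so this is not particular to the 26 genes.

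**Figure D4:**
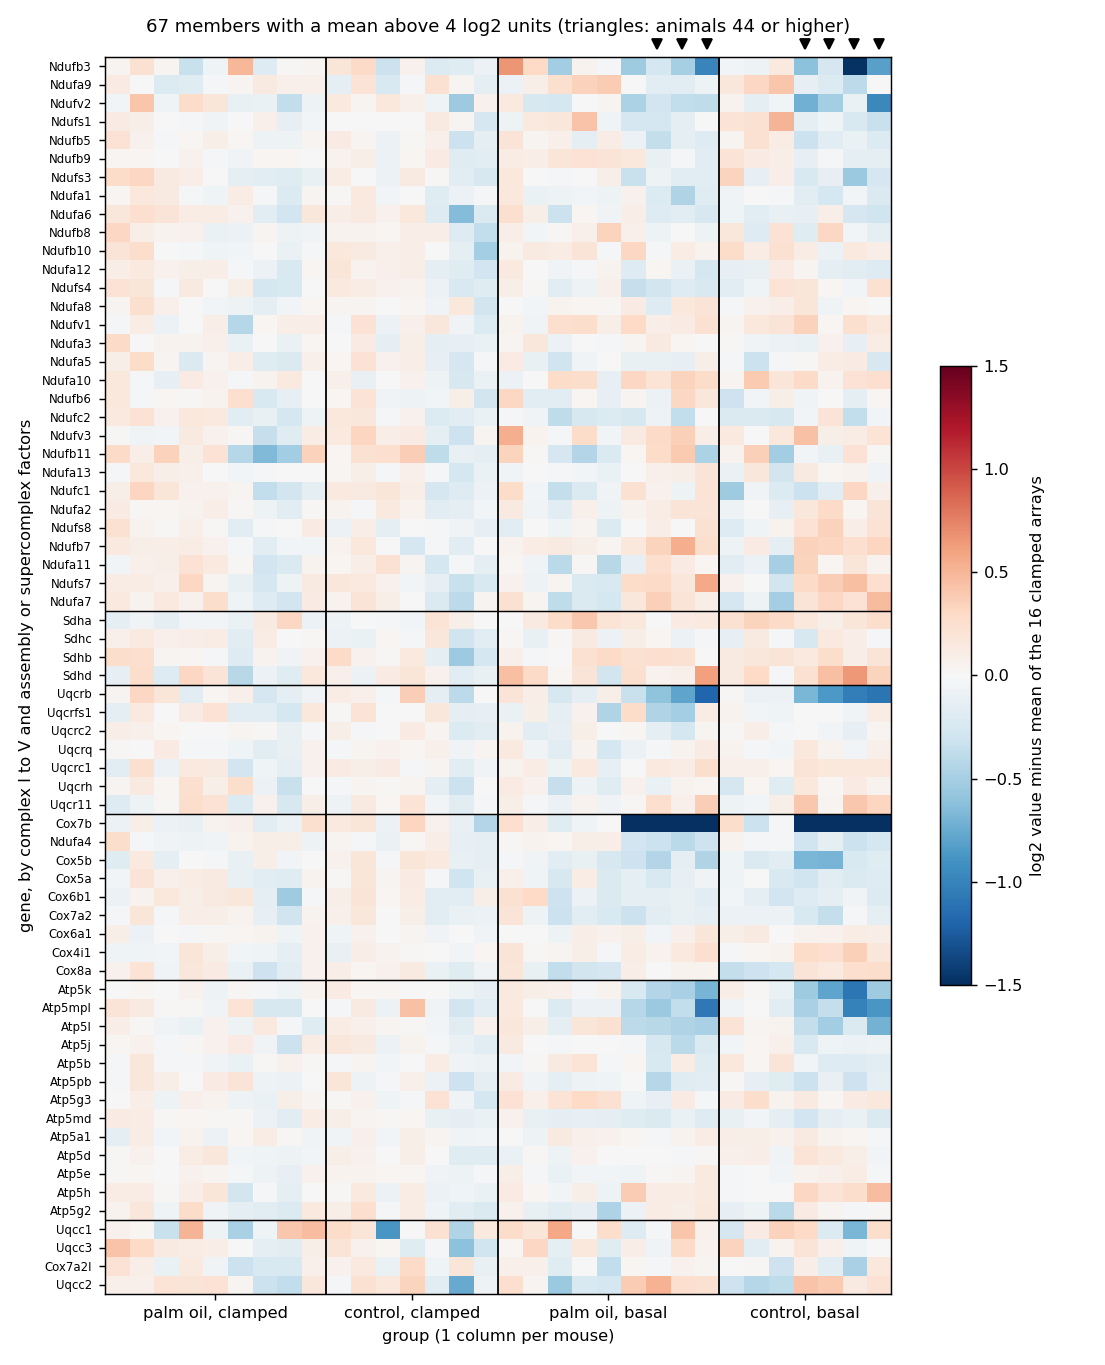
Log2 value of the 67 members above 4 log2 units in each mouse, minus the mean of the 16 clamped arrays, by complex and, within it, by the difference between the marked and the other basal arrays. Columns under a triangle are basal animals numbered 44 or higher. The dark blue cells of Cox7b and the paler ones of Uqcrb, Atp5k, Atp5mpl and Atp5l stand in those columns, and for Cox7b also in palm oil basal replicate 6.

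Genes of the same chain encoded in mitochondrial DNA were all lower on the 7 arrays, while the nuclear members went both ways, with a median of 0.02. The 10 measured, among them ND2 of complex I, CYTB of complex III and COX1 of complex IV, had a median log2 difference of -0.71 and values of -1.08 ± 0.08 for ND2 and -0.33 ± 0.06 for ND4 (limma adjusted p = 4.31e-10 and 6.66e-04). In the clamp comparisons 0 of the 10 were called in limma, with medians of 0.38 in control mice and 0.25 in palm oil mice and with 9 and 2 at an unadjusted p under 0.05. Other transcripts were counted between the 7 and the other basal arrays as well, where 13.4% of all genes were called. Of 8 hepatocyte markers 5 were lower (median -0.24), and of 12 pancreatic acinar markers, enzymes of another organ, 0 were called, with a median of 2.41 and 4 at an unadjusted p under 0.05 in limma. Of 8 striated muscle markers 2 were lower (median -0.30), Acta1 at -1.49 and Mb at -0.57 (limma adjusted p = 0.0460 and 0.0193). Of 7 neutrophil markers 1, Mpo, was higher at 0.41 (limma adjusted p = 0.0460). Acta1, Mb and Mpo averaged 2.01, 1.23 and 1.35 over all arrays, near the floor of the array. Of 7 Kupffer cell markers 0 were called in limma, with 1 at an unadjusted p under 0.05. The mean of the acinar markers ran from 2.82 to 9.67 on the 7 arrays and was above 6 on 5 of them, against 1.82 to 8.42 and 4 of the other 9. With the acinar mean as a term in the fit, the clamp difference of Cox7b in control mice was 1.22 and no longer passed (limma adjusted p = 0.128). In control basal replicates 1 to 7 the acinar mean was 7.46, 7.70, 2.38, 5.15, 2.82, 8.63 and 8.98. Cox7b on the same arrays was 8.86, 8.28, 8.59, 6.05, 5.55, 6.13 and 6.07, and replicates 4 to 7 are numbered 44 or higher. Leaving out the 12 arrays above 6 left basal arrays of unlike animal numbers in the 2 gavage groups. Of the 3 control basal arrays then left, 2 are numbered 44 or higher, and Cox7b differed by 1.90 (limma adjusted p = 0.00567). The 4 palm oil basal arrays left are all numbered below 44, and Cox7b differed by -0.05 (limma adjusted p = 0.979). The part of these markers in the differences of the members was not tested.

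Complex II, succinate dehydrogenase, takes its 4 subunits from the nucleus alone, and none was called. All 4 had a log2 difference below 0 in the clamped control mice, with a median of -0.22, and 3 of 4 did in the clamped palm oil mice. Sdha, the flavoprotein that oxidises succinate, had lowest, median and highest values of 8.49, 8.56 and 8.76 in control clamped mice, against 8.65, 8.79 and 8.89 in control basal mice. In palm oil mice they were 8.41, 8.51 and 8.87 under the clamp, against 8.55, 8.71 and 8.97 in basal mice. Of the clamped arrays, 6 of 7 control and 7 of 9 palm oil arrays lay below every basal array of their gavage group. The differences were -0.20 ± 0.08 and -0.18 ± 0.07 (limma adjusted p = 0.139 and 0.141). The iron-sulfur subunit Sdhb differed by -0.23 ± 0.10 in control mice and -0.09 ± 0.09 in palm oil mice, and the membrane anchor Sdhd by -0.29 ± 0.12 and -0.19 ± 0.11 (limma adjusted p = 0.15, 0.651, 0.165 and 0.363). With the 7 late-numbered basal arrays left out, Sdha had the lowest difference of the brighter members in palm oil mice, at -0.21.

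Complex I, the NADH dehydrogenase, had 0 of 31 members called in either clamp comparison, with medians of -0.03 in control mice and 0.00 in palm oil mice. Ndufa10, an accessory subunit named here after its values were seen, differed by -0.25 ± 0.09 in control mice (limma adjusted p = 0.0598) and -0.12 ± 0.08 in palm oil mice (limma adjusted p = 0.441). Complex III had medians of -0.01 and 0.06 over its 7 members. Uqcrb differed there by 0.54 ± 0.19 in control mice (limma adjusted p = 0.0611) and 0.33 ± 0.16 in palm oil mice (limma adjusted p = 0.283). Complex V had 0 of 17 members called and medians of 0.05 and 0.06, and Atp5k differed by 0.42 ± 0.14 and 0.17 ± 0.12 (limma adjusted p = 0.0588 and 0.523). Under some other settings Uqcrb and Atp5k passed the threshold in control mice as rises and Ndufa10 as a fall. Ndufa10 had a limma adjusted p = 0.0305 after repeated quantile normalization and 0.0293 among the brighter genes alone. That normalization also made Sdha (-0.25), Cox4i1 (-0.31), Atp5g3 (-0.25) and Atp5d (-0.26) falls (limma adjusted p = 0.0386, 0.0262, 0.0298 and 0.0373). Atp5mpl passed as a rise with the animal number as a term (0.41, limma adjusted p = 0.0185).

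Several subunits exist as tissue isoforms. The general forms Cox4i1, Cox6a1, Cox6b1, Cox7a2 and Cox8a ranged between 8.39 (Cox6b1) and 11.2 (Cox6a1) over all arrays. Cox4i2, the lung isoform, lay between 0.67 and 1.85, and Cox6b2 and Cox8c, known from testis, between 1.27 and 4.09 and between 0.80 and 1.63. Of the heart and muscle forms, Cox6a2 lay between 1.28 and 3.40, Cox8b between 0.81 and 2.60 and Cox7a1 between 2.77 and 4.31. Cox7b2, a relative of Cox7b known from testis, lay between 0.87 and 2.46. Ndufa4, a subunit now placed in complex IV, lay between 10.31 and 10.97, and its relative Ndufa4l2, known from hypoxia, between 1.47 and 2.85. The median of all genes was 1.83, and levels of different probe sets are not set against each other. Mean values of 8 striated muscle markers stayed between 1.14 and 2.43.

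None of these isoforms was called in the clamp, palm oil or interaction contrasts. Ndufa4, Cox8a and Atp5g2 were among the 26 genes called between the 7 and the other basal arrays, with ranges that overlapped. The clamp differences of Cox4i1 were -0.15 ± 0.07 in control mice and -0.10 ± 0.07 in palm oil mice, and those of Cox7a2 0.15 ± 0.09 and 0.15 ± 0.08 (limma adjusted p = 0.230, 0.449, 0.355 and 0.314). The 3 genes of subunit c of the ATP synthase rotor, which encode the same mature protein, also stayed below the threshold in those contrasts. After repeated quantile normalization Cox4i1 and Atp5g3 passed as falls in control mice, as given above. Atp5g1 lay between 0.74 and 2.78, Atp5g2 between 9.08 and 9.81 and Atp5g3 between 9.0 and 9.57.

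Palm oil itself gave no call among the members. In basal mice 0 of 83 were called, as were 0% of all genes, and 1 member (1.20%) had an unadjusted p under 0.05 in limma, against 5.11% of all genes. In clamped mice 0 of 83 and 0% of all genes were called, and 0 members had an unadjusted p under 0.05. Median differences of the members were 0.00 and 0.02. The 95% interval of the palm oil difference lay within 1.5-fold in either direction for 65 of the 67 brighter members in basal mice. In clamped mice it did for 66, and the shares of all genes above 4 log2 units were 89.9% and 90%. The exceptions in basal mice included Cox7b, whose difference of 0.63 ± 0.42 had an interval from -0.22 to 1.48 (limma adjusted p = 0.984). In clamped mice its difference was -0.02 ± 0.42, with an interval from -0.87 to 0.83.

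The members with the smallest p in basal mice were Atp5g1, Ndufs4 and Atp5k. Atp5g1 had lowest, median and highest values of 0.74, 1.43 and 1.76 in palm oil basal mice, against 1.22, 1.62 and 2.63 in control basal mice, all near the floor of the array. It differed by -0.50 ± 0.23, the accessory complex I subunit Ndufs4 by -0.17 ± 0.09 and Atp5k by 0.25 ± 0.13 (limma adjusted p = 0.960, 0.975 and 0.975). In clamped mice they were Uqcc3, an assembly factor of complex III, at 0.21 ± 0.11, the muscle isoform Cox7a1 at 0.33 ± 0.20 and the membrane anchor Sdhc at 0.12 ± 0.08 (limma adjusted p = 1.00 for each). All of these groups overlapped.

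**Figure D5:**
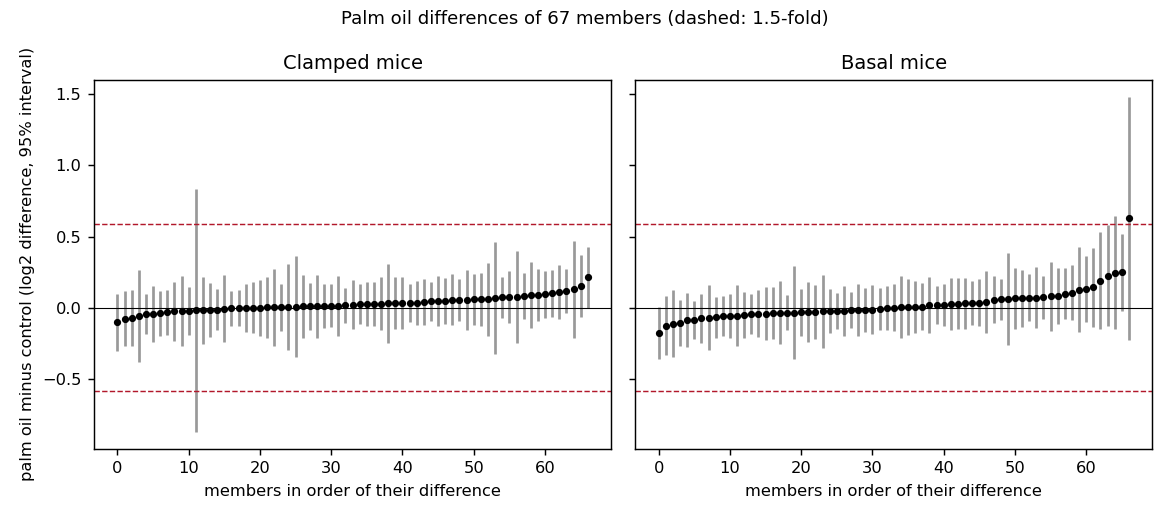
Palm oil minus control log2 difference with its 95% interval for the 67 members above 4 log2 units, in order of size, in clamped mice (left) and basal mice (right). Dashed lines mark 1.5-fold, and the intervals of 66 genes in clamped and 65 in basal mice lie between them.

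The interaction asked whether the palm oil difference was the same in clamped and basal mice. It was called for 0 of 83 members and 0% of all genes, with 0 members at an unadjusted p under 0.05 in limma. The member median was 0.03. Of the 67 brighter members 63 had an interval within 1.5-fold, against 68.6% of all genes above 4 log2 units. The smallest p values belonged to Ndufs8 (0.19 ± 0.11), Ndufs4 (0.21 ± 0.13) and the pseudogene Uqcrh-ps1 (-0.47 ± 0.32), each with a limma adjusted p = 1.00. For Cox7b the interaction was -0.65 ± 0.59 (limma adjusted p = 1.00), with an interval from -1.86 to 0.56.

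Genes that make, assemble and feed the chain were counted from lists, chosen like the members with earlier results known. Of 17 regulators of mitochondrial biogenesis 2 rose and 1 fell in control mice, and 2 rose and 1 fell in palm oil mice. Pprc1, a coactivator of the PGC-1 family, rose by 1.19 ± 0.16 and 1.03 ± 0.14, and Ppargc1b, its relative PGC-1 beta, fell by 0.91 and 0.77 (limma adjusted p = 3.59e-06, 3.22e-06, 1.17e-04 and 2.06e-04). Yy1, a transcription factor, rose by 0.45 ± 0.14 in control mice (limma adjusted p = 0.0377) but differed by 0.13 once the 7 late-numbered basal arrays were left out (limma adjusted p = 0.619). Of 12 genes of the citric acid cycle, 1 rose and 1 fell in control mice and 1 rose in palm oil mice. Fh1, fumarate hydratase, which acts on the product of complex II, rose by 0.48 ± 0.09 and 0.59 ± 0.08 (limma adjusted p = 2.26e-04 and 1.71e-06), and Dlst, of the oxoglutarate dehydrogenase complex, fell by 0.29 in control mice (limma adjusted p = 0.0335).

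Of 16 genes of electron carriers and ubiquinone synthesis, 2 rose and 1 fell in control mice and 1 rose in palm oil mice. Coq10b, a ubiquinone-binding protein, rose by 1.01 ± 0.18 and 0.94 ± 0.16, and Coq8a, an atypical kinase of ubiquinone synthesis, fell by 1.37 in control mice and differed by -0.68 ± 0.22 in palm oil mice (limma adjusted p = 1.91e-04, 8.26e-05, 3.01e-04 and 0.0533). Cycs, cytochrome c, rose by 0.60 ± 0.15 in control mice (limma adjusted p = 0.00745) and differed by 0.15 once those 7 basal arrays were left out (limma adjusted p = 0.563). Of 43 assembly factors of the complexes, 3 fell in control mice, and 4 fell and 1 rose in palm oil mice. Sdhaf1, an assembly factor of complex II, fell by 0.58 and 0.38, and Acad9, which helps to assemble complex I, by 0.53 and 0.40 (limma adjusted p = 9.90e-04, 0.0160, 0.00445 and 0.0180). Coa3, an assembly factor of complex IV, fell by 0.44 in control mice (limma adjusted p = 0.0252), and differed by -0.24 with those basal arrays left out (limma adjusted p = 0.453).

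Of 25 genes of mitochondrial import 1 rose and 1 fell in each gavage group. Tomm40l, a relative of the import channel of the outer membrane, fell by 1.3 and 1.18, and the chaperonin Hspe1 rose by 0.47 ± 0.13 and 0.35 ± 0.11 (limma adjusted p = 2.48e-05, 1.36e-05, 0.0129 and 0.0470). Of 71 genes of the mitochondrial ribosome 1 rose and 2 fell in each gavage group. Mrpl12 and Mrpl49 fell by 0.57 and 0.58 and Mrpl38 rose by 0.32 ± 0.10 in control mice (limma adjusted p = 0.00485, 0.00580 and 0.0417). In palm oil mice Mrpl49 fell by 0.44 (limma adjusted p = 0.0204), and Mrpl12 and Mrpl38 differed by -0.31 ± 0.12 and 0.05 ± 0.09 (limma adjusted p = 0.123 and 0.843). The shares of all genes called were the 8.75% of control and the 7.57% of palm oil mice given above. Markers of neutrophils rose with the clamp (4 of 7 in each gavage group, with medians of 1.14 and 1.19), as did 3 of 8 hepatocyte markers in each and 3 of 7 Kupffer cell markers in control and 2 of 7 in palm oil mice, and their part in these values was not tested.

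Promoters of the members were read for the motifs that textbooks give for respiratory genes. RefSeq windows (GRCm38.p6) from 250 bases before to 50 after the start were given for 67 members. The letters GCATGCG (NRF1), CCGGAAG (the ETS family, such as GABPA) and AAGATGG (YY1) were searched on both strands. NRF1 letters were in 16.4% of the member windows, against 4.90% of 17424 other protein-coding genes, ETS letters in 25.4% against 12.9%, and YY1 letters in 16.4% against 7.10%. At least 1 of the 3 was in 32 of 67 member windows (47.8%), against 22.5% of the others. The other genes were not matched to the members in expression or in the base content of their windows. Windows of Cox7b and Cox5b, the called genes, held none in the 150 bases before the start, which says only that these letters are not there. Atp5k had NRF1 letters there, as overlapping matches on both strands, and Sdhd had ETS letters. These 4 are shown, 5′ to 3′ on the gene's strand and ending at the base before the start, with matched letters in capitals: Cox7b at chrX:106015550-106015699 (plus strand), Cox5b at chr1:36691337-36691486 (plus), Atp5k at chr5:108434400-108434549 (minus) and Sdhd at chr9:50603850-50603999 (minus).
Cox7b: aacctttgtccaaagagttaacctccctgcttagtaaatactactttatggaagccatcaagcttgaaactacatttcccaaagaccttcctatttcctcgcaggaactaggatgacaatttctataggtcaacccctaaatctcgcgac
Cox5b: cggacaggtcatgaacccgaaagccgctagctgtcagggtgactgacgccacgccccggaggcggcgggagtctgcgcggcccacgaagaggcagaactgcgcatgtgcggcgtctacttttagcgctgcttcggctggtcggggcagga
Atp5k: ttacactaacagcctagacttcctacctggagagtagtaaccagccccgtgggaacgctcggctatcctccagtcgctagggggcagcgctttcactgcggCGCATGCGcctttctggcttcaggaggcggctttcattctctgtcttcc
Sdhd: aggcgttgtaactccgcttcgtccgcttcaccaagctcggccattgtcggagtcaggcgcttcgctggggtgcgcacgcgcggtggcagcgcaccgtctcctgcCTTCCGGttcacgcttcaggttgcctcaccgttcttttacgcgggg
A match is a run of letters and no measured binding. Nrf1 differed by 0.39 ± 0.14 in control mice (limma adjusted p = 0.0888) and rose by 0.47 ± 0.13 in palm oil mice (limma adjusted p = 0.0144), and Gabpa differed by -0.03 ± 0.09 and -0.12 ± 0.08 (limma adjusted p = 0.892 and 0.505), genes named here for their motifs.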

How the data were processed

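Liver RNA of 32 mice was measured on 1 array each. The files hold log2 expression as deposited by the authors, and no further normalization was applied. The submitters' processing notes name RMA and Expression Console 1.3.0.187. RMA compresses low values towards the background. Of 41345 probe sets, 23521 had 1 gene symbol, 1814 had several and 16010 were not listed in the annotation. The brightest probe set per symbol left 22180 genes, and 10 probe sets that pair a symbol of the rule with another were left out. Uqcr10, Ndufs6, Cox6c, Ndufb4 and Ndufb2 are therefore not among the members. Ndufs5 is measured by a probe set with a mean of 1.52, while the shared one left out had 6.23.

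Groups came from the titles. limma 3.58.1 (R 4.3.3, lmFit and eBayes) fitted 1 mean per group to all 32 arrays (28 residual degrees of freedom) and tested 5 contrasts, with Benjamini-Hochberg adjustment over all genes and a threshold of 0.05. Values after ± are standard errors unless marked. The 7 basal arrays numbered 44 or higher were compared with the other 9 in a fit with a term for them. This split was chosen from these same data, so its p values are descriptive. The functions were tested on simulated data. The members, gene lists and tests were chosen with earlier results of these data known. Named were Cox7b, tissue isoforms, called members, the 3 smallest p values of each palm oil contrast and of the interaction, and up to 3 called genes of each other list by p in control mice, with stated exceptions. Replicate numbers do not pair animals: correlations of same-numbered arrays ran from -0.363 to 0.360. The number of arrays limits the precision. Alternatives are given in the closing section.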

Additional observations from a re-analysis of the deposited data

Results flagged for a closer look

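The named members and the mean of all members were looked at group by group, and in 11 of the 120 cases 1 mouse stood apart from its group by Dixon's criterion, which chance alone meets in about 1 of 20 groups. Among bright genes these were palm oil clamped replicate 8 for Cox6b1 (8.39, the others 8.79 to 9.10), palm oil basal replicate 1 for Cox7a2 (10.06, the others 9.55 to 9.80), palm oil clamped replicate 1 for Ndufa4 (10.97, the others 10.64 to 10.80) and palm oil clamped replicate 6 for Sdhc (7.55, the others 7.71 to 7.88). Among dim genes they were palm oil clamped replicate 8 for Cox6a2 (3.35), palm oil clamped replicate 6 for Cox8c (1.61), palm oil basal replicate 1 for Cox7a1 (4.31), control clamped replicate 1 for Atp5g1 (2.78), control basal replicate 7 for Cox7b2 (2.46), control basal replicate 1 for Cox8b (2.34) and control basal replicate 3 for Cox8c (1.63). None of these genes was called in the clamp, palm oil or interaction contrasts.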

How the results depend on the processing

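For both palm oil contrasts and for the interaction, 0 members were called under every alternative run, single arrays left out included. For the clamp in palm oil mice the count stayed at 0 except with only the basal arrays numbered 44 or higher (9) and without palm oil clamped replicate 8 (1, a fall of Sdha), a range of 0 to 1 over single arrays left out. For the clamp in control mice, with 2 members called, the count was 0 when the basal arrays numbered 44 or higher were left out, when they had a term, without these and palm oil basal replicate 6 (chosen after seeing the data), and with the compared groups alone. It was 11 with only those basal arrays, 1 with the mean of all probe sets, with array weights and with the acinar markers as a term, 4 with a trend and robust prior, 5 with the brighter part of the genes, 5 with the animal number as a term, 6 at a threshold of 0.1 and 7 after repeated quantile normalization, where 2 rose and 5 fell (2 and 0 as reported). Leaving out single arrays gave 0 to 5: Cox7b lost its call without control basal replicate 4, 5, 6 or 7 (1.28 to 1.38, adjusted p = 0.0618 to 0.0742), Cox5b without replicate 4 or 5. The replicate block gave 5 for the clamp in control mice. It left the other counts at 0, and since the numbers belong to different animals it says nothing of a pairing. The causes of these changes were not tested.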
